A study of Mus musculus with 2 samples.

Results

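The replication-dependent histone genes encode the core histones H2A, H2B, H3 and H4 and the linker histone H1, and in the mouse they lie in clusters. They were taken here as the protein-coding genes of GENCODE M21 whose symbols start with Hist1h, Hist2h, Hist3h or Hist4h. These were 67 of 21911 protein-coding genes: 6 H1, 18 H2A, 18 H2B, 12 H3 and 13 H4 genes. Open chromatin was mapped by DNase-seq, which finds the sites that the nuclease DNase I cuts most often, in MN1, an immortalized mouse line that the labels give as strain B6NCrl. The cells of both libraries, biological replicates 1 and 2 of 1 group, had received the synthetic androgen methyltrienolone at 10 nM. The labels name no tissue or genotype. Untreated cells were not analysed here, so no value below measures a response to the androgen.

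Histone mRNAs of this family are made in bulk while a cell copies its DNA, so that new DNA can be packed at once. Their promoters are compact. They often hold a TATA box near the start and CCAAT boxes, which the factor NF-Y binds. In many H2B promoters an octamer element, bound by POU2F1 (OCT1), is added. The coactivator NPAT, switched on by cyclin E and CDK2, gathers at the clusters in nuclear bodies. The mRNAs have no poly(A) tail in dividing cells and end instead in a short stem-loop that SLBP binds. H2A and H2B genes often stand back to back and share the sequence between their starts as a promoter.

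Of 189930 deposited peaks, 189648 on 21 main chromosomes were used from replicate 1, and 170745 of 171017 from replicate 2. Each peak is 150 bp wide and carries a whole-number score from 1 to 150 set by the authors. What the score means, not given in the sources used here, is unknown, and it serves only to rank and describe peaks within a list. A wider set of 158286 and 142225 hotspots on these chromosomes was deposited beside the peaks. Reads were not analysed here, so the depth behind a score is unknown, and the lack of a peak does not show a closed site. A promoter is called open where overlapping peaks of both replicates, merged into 1 shared region, reach within 1 kb of an annotated transcription start.

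The sequences between divergent H2A and H2B starts are shown first, because 8 of these gaps hold a shared region that both neighbours have in common and because near-identical copies of one of them stand among the members without a peak. They are printed on the plus strand of mm10 (GRCm38), from the base after the 5′ end of the minus-strand gene to the base before the 5′ end of the plus-strand gene. Capitals mark the TATA box (TATAAA), the CCAAT box and the octamer (ATTTGCAT) on either strand, so that ATTGG stands for a CCAAT box read on the other strand. The first 3 held a peak in both replicates and the last 2 did not.
Hist1h2ac and Hist1h2bc, chr13:23683949-23684198, plus strand: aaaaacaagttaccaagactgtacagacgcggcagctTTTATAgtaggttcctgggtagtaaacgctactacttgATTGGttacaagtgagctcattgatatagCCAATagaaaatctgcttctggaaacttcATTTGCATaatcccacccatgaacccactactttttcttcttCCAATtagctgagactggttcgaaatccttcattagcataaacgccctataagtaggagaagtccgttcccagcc
Hist1h2an and Hist1h2bp, chr13:21787219-21787460, plus strand: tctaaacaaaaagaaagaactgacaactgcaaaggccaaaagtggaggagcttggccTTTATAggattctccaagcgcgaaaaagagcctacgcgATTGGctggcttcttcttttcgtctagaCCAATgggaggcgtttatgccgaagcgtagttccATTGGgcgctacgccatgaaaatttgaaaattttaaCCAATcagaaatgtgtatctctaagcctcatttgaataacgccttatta
Hist1h2ae and Hist1h2bg, chr13:23571221-23571395, plus strand: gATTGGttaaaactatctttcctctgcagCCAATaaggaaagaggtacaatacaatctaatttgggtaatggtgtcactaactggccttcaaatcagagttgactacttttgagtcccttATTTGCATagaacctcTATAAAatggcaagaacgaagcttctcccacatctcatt
Hist1h2bq and Hist1h2ao, chr13:21810198-21810464, plus strand: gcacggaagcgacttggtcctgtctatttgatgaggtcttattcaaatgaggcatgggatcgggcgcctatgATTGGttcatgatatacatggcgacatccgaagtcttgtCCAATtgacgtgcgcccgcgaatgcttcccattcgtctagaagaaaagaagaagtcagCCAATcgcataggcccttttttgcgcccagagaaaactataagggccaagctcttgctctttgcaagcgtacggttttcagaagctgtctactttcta
Hist1h2bf and Hist1h2ad, chr13:23574197-23574380, plus strand: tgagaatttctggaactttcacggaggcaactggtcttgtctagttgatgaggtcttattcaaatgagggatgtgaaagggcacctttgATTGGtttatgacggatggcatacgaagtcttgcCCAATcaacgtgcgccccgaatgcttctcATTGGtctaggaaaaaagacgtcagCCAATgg

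Promoters of the histone genes were open in 53 of 67 cases (79.1%, 95% Wilson interval 67.9 to 87.1%), against 59.5% of all protein-coding genes. This interval, like those that follow, covers counting error only, and neighbours that share a promoter are not independent. Replicate 1 alone had a peak within 1 kb of 57 members (85.1%), against 61.9% of all protein-coding genes. Replicate 2 alone had one at 53 members (79.1%), against 60.8% of all protein-coding genes. Within 250 bp of the 5′ end a shared region was found at 51 members (76.1%), against 50.6% of all protein-coding genes. Hotspots of both replicates lay within 1 kb of 53 members (79.1%), against 59.9% of all protein-coding genes. The members' share was thus above that of all protein-coding genes under each of these rules, by a larger margin in the narrow window.

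Every class held genes with and without a shared region. Open promoters numbered 11 of 13 for H4, 10 of 12 for H3, 14 of 18 for H2A, 14 of 18 for H2B and 4 of 6 for the linker histone H1. Members with no more than 100 kb between neighbours were joined into groups. On chromosome 3 the Hist2 cluster had 9 of 10 genes open, on chromosome 6 the single gene Hist4h4 was open, and on chromosome 11 both genes of the Hist3 pair were open. The 54 Hist1 genes of chromosome 13 fell into 4 groups. The first group had 12 of 18 genes open, the second 5 of 5, the third 24 of 29 and the fourth 0 of 2.

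**Figure D1:**
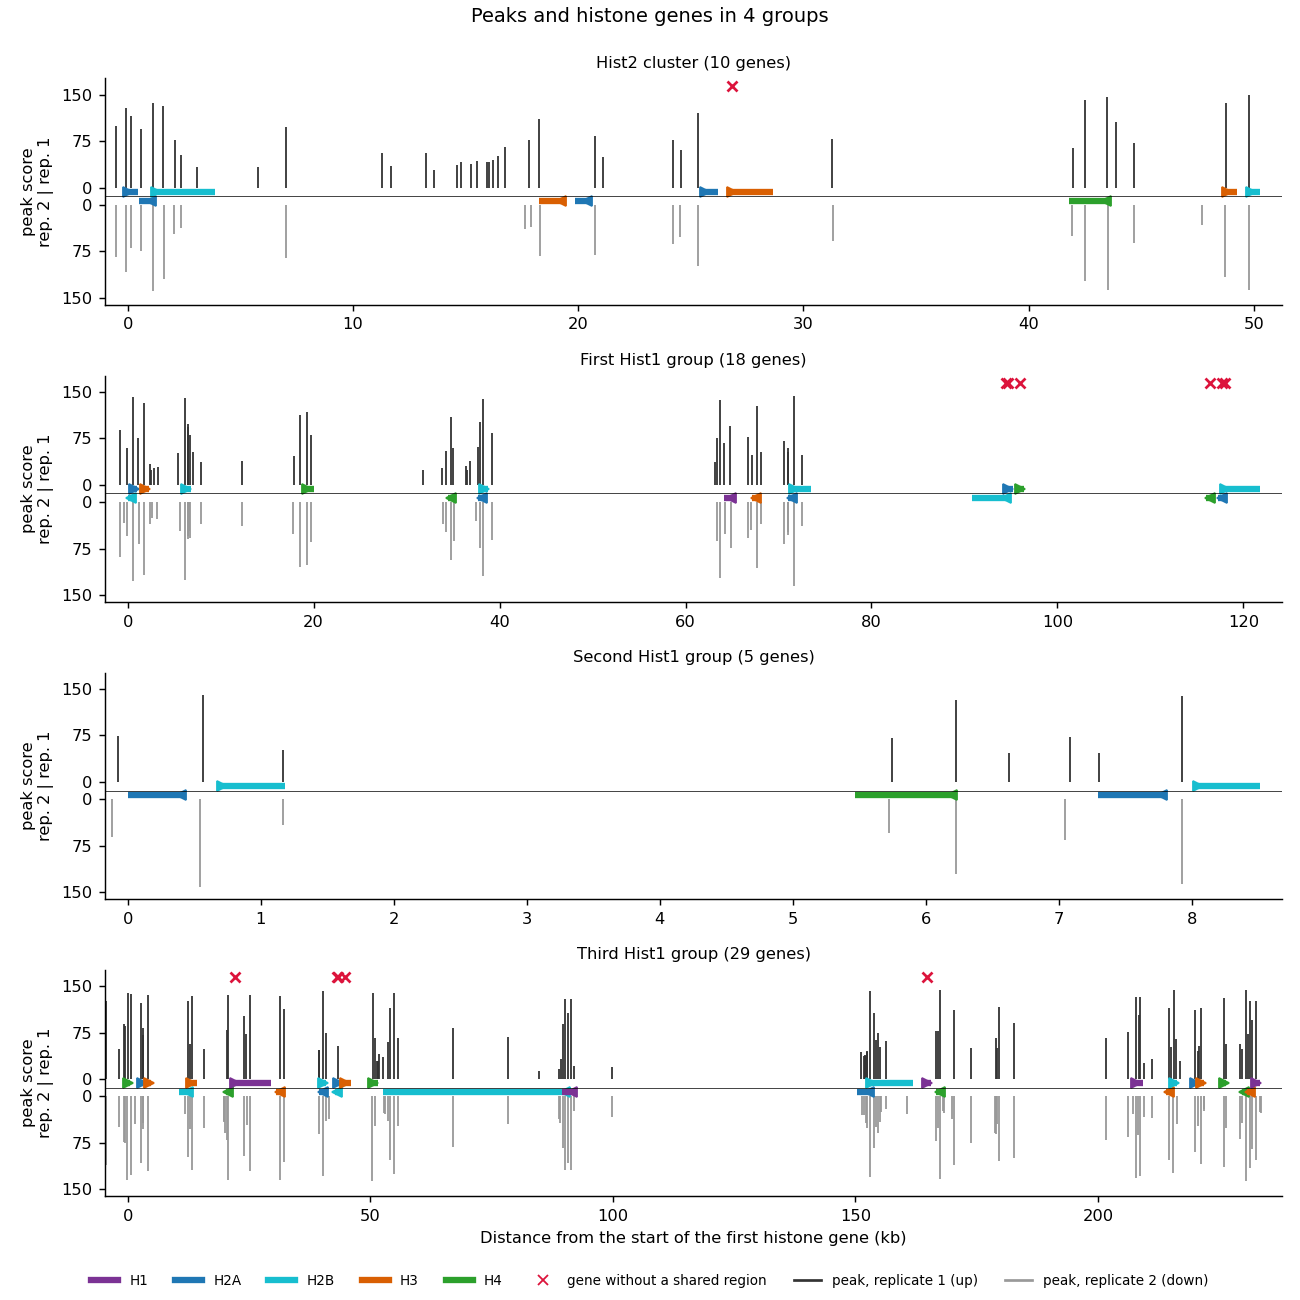
Peaks and genes along the Hist2 cluster and 3 of the Hist1 groups. The horizontal axis is the distance in kb from the start of the first histone gene of the group. Lines up are the scores of peaks of replicate 1 and lines down those of replicate 2, coloured bars are histone genes with an arrowhead at the 5′ end, and crosses mark the genes without a shared region. High lines stand at the 5′ ends in both replicates, and 6 crosses lie together at the right end of the first Hist1 group.

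The open histone promoters were of middling score. The highest promoter peak of an open member scored 138 in the median of replicate 1 (range 83 to 150) and 128 in replicate 2 (74 to 145), while the medians over all open protein-coding promoters were 137 and 128. Ranked among all open protein-coding promoters of the same list, the median member stood at percentile 53.7 in replicate 1 and 50.9 in replicate 2 (mean 52.3 ± 2.02, SD, n = 2). The lower of a gene's percentiles in both replicates had a median of 44.5 over the 53 members, against 44.9 over 13020 protein-coding genes with a promoter peak in each list. At the upper end, 1 of 53 members (1.89%) stood over percentile 75 in both lists, against 18.4% of the protein-coding genes. The members' scores thus lay near the middle of the distribution and seldom at its top.

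**Figure D2:**
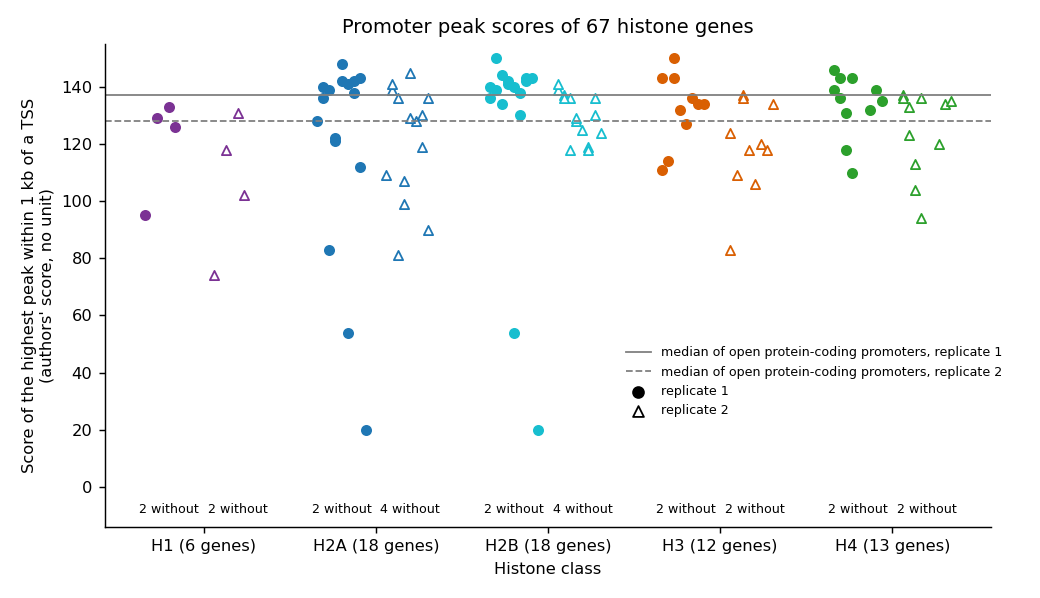
Score of the highest peak within 1 kb of a start for each histone gene, by class. Filled circles are replicate 1, open triangles replicate 2, the lines are the medians over all open protein-coding promoters (137 in replicate 1, 128 in replicate 2), and the numbers at the bottom count genes without any peak in that replicate. H2A and H2B points stand mostly near these medians, H1 points mostly below them, and 2 H2A and 2 H2B points of replicate 1 at 54 and 20 have no partner in replicate 2.

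H2B and H2A, which form dimers in the nucleosome, had the highest class medians in replicate 1. Open H2B promoters had a median score of 140 in replicate 1 and 130 in replicate 2, and open H2A promoters 138 and 128. The median of H4 was 136 in replicate 1 and 133 in replicate 2, and that of H3 was 134 and 119. H1 had the lowest class medians, 128 and 110. The order of the classes was thus not the same in both replicates, with H4 above H2B in replicate 2, and the ranges of the classes overlapped.

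Among the H2A genes, Hist3h2a had the highest score of both replicates together, with 148 in replicate 1 and 145 in replicate 2. It was the 1 member over percentile 75 in both lists, at 91.3 and 95.5. Hist1h2an followed with 143 and 136, and Hist1h2ah with 140 and 141. Among the H2B genes, Hist2h2bb scored 150 and 137, Hist3h2ba 144 and 136, and Hist1h2bp 143 and 136. Hist1h2an and Hist1h2bp stand back to back and have these values from 1 peak. The peak of Hist2h2bb reached the top score of the list in replicate 1, yet only percentile 74.0 in replicate 2.

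For H3, the histone whose tail carries many of the known chromatin marks, the highest scores were borrowed from neighbours. Hist2h3b had 150 and 137 within 1 kb, but that peak is centred 977 bp downstream of its 5′ end and is the promoter peak of Hist2h2bb. Within 250 bp of its own 5′ end, Hist2h3b had 137 in replicate 1 and 117 in replicate 2. Likewise the peak credited to Hist1h3a, with 143 and 136, lies 895 and 915 bp downstream at Hist1h4a, and its own start had 126 and 116. Hist1h3e scored 134 in both replicates, in a peak centred at −122 bp from its 5′ end. With the narrow window, the H3 class as a whole had median scores of 127 and 116, below the other core histones.

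For H4, Hist2h4 scored 146 in replicate 1 and 137 in replicate 2, Hist1h4a 143 and 136, and Hist1h4c 143 and 133. The single gene Hist4h4 on chromosome 6 had 136 and 123. The lowest open H4 genes were Hist1h4k, with 110 and 94, and Hist1h4j, with 118 and 104. Among the H1 genes, which bind the DNA between nucleosomes, Hist1h1c scored 133 and 131, Hist1h1e 129 and 118, and Hist1h1a 126 and 102. Hist1h1b had 95 and 74, the lowest score of an open Hist1 gene in both replicates. The remaining open genes of the Hist2 cluster were Hist2h2ab with 128 and 109, Hist2h2ac and Hist2h2be with a common 136 and 139, Hist2h2aa1 with 121 and 99, Hist2h3c2 with 111 and 83, and Hist2h2aa2 with 83 and 81.

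By group, the Hist3 pair had the highest medians, 146 in replicate 1 and 140 in replicate 2. The second Hist1 group had 139 and 136, the Hist2 cluster 136 and 137, the third Hist1 group 136 and 126, and the first Hist1 group 138 and 119. Ranked within each list, the median of the Hist2 cluster stood at percentile 48.9 in replicate 1 and 74.0 in replicate 2, and that of the first Hist1 group at 53.7 and 36. The replicates thus placed these groups in opposite orders. Replicate 1 had the higher score in 47 of the 53 open members (88.7%), against 86.5% of the 13020 protein-coding genes. The percentile was higher in replicate 1 in 35 of the 53 members (66.0%), against 49.1% of the protein-coding genes. Replicate 1 has the longer list, and its label names 2 sequencers while that of replicate 2 names none. The part of this in the scores was not tested.

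Peak positions were close between replicates. The highest promoter peak lay at the same place in both lists for 24 of 53 members (45.3%), against 35.2% of the protein-coding genes. It lay within 20 bp for 46 members (86.8%), against 75.3%. The peaks overlapped in 52 members. The exception was Hist1h4j, where the highest peak of replicate 2 was 740 bp away from that of replicate 1. A peak of replicate 2 with a score of 101 was present at the start of Hist1h4j too.

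Relative to the annotated 5′ end, histone peaks lay farther upstream than those of other genes. Among the 51 members with a peak of both replicates reaching within 250 bp, the centre of the highest one lay at a median of −87.0 bp in replicate 1 and −94.0 bp in replicate 2, where negative values are upstream. Over all protein-coding genes the medians were −23.0 bp (n = 11057) and −29.0 bp (n = 11053). The centre was upstream of the 5′ end in 90.2% of members in replicate 1 and 94.1% in replicate 2, against 61.6% and 66.1% of all protein-coding genes. In several members, among them Hist1h2an, Hist1h2bl and Hist1h3h, the annotated 5′ end is the start codon itself (0 bp apart). Such models hold no untranslated bases before the codon. The part of this in the distances, here and by class below, was not tested.

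The classes differed in position. H2B peaks were centred at medians of −122 bp in replicate 1 and −123 bp in replicate 2 (n = 14), and H2A peaks at −115 bp in both (n = 13). H3 peaks lay at −81.0 and −88.0 bp (n = 9) and H4 peaks at −53.0 and −57.0 bp (n = 11). The 4 open H1 genes had medians of 25 and 8.5 bp, inside the gene, and 3 of these 4 peaks were centred downstream in each replicate. Many H2A and H2B genes share a peak with a divergent partner, which places its centre between both starts, so the values of these classes are not independent of each other.

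**Figure D3:**
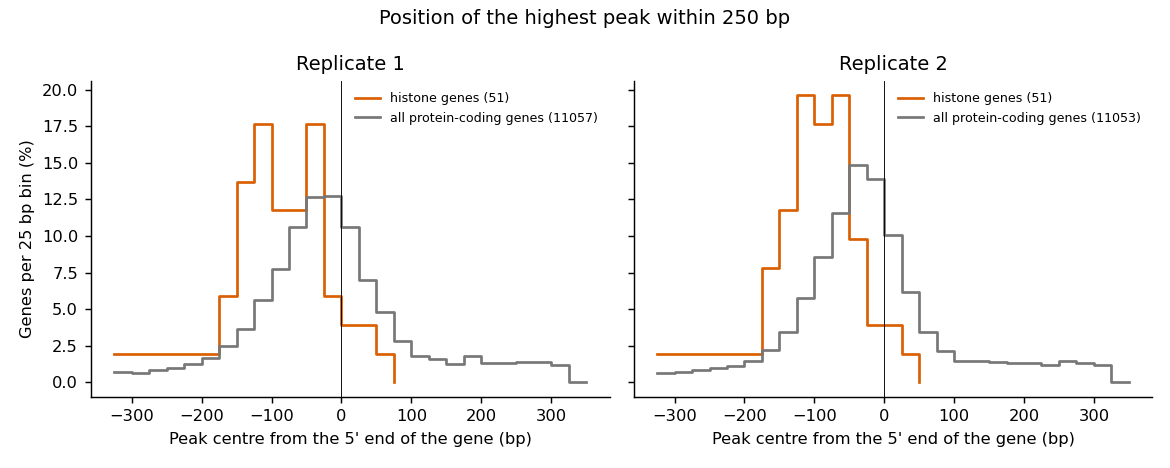
Distance in bp from the annotated 5′ end of the gene to the centre of the highest peak that reaches within 250 bp, as the percentage of genes per 25 bp bin, in replicate 1 (left) and replicate 2 (right). The orange line is the histone genes (n = 51) and the grey line all protein-coding genes (n = 11057 and 11053). The histone line lies to the left of the grey line, with medians of −87.0 and −94.0 bp against −23.0 and −29.0 bp.

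The 53 open members had 107 shared regions within 1 kb of their starts. Of these, 33 were within reach of several members, at most 3. The 53 members had 41 distinct pairs of highest peaks, 1 peak from each replicate, and 24 members shared theirs in 12 couples of genes. The count of open genes is therefore larger than the count of separate highest peaks behind it.

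Divergent neighbours, with the 5′ ends facing away from each other, numbered 19, and 13 of them had less than 1 kb between the 5′ ends. Of these, 12 were an H2A gene beside an H2B gene, with 175 to 305 bp between the starts (median 258). A shared region lay between the starts in 8 of the 12, a count that was not made for divergent pairs of other genes. In each of these 8 pairs there was exactly 1 region. The highest peaks between Hist1h2an and Hist1h2bp scored 143 in replicate 1 and 136 in replicate 2, those between Hist1h2ac and Hist1h2bc 142 and 130, and those between Hist1h2ae and Hist1h2bg 142 and 129. Between Hist1h2bl and Hist1h2ai they scored 141 and 128, between Hist1h2ah and Hist1h2bk 140 and 141, between Hist1h2ag and Hist1h2bj 139 and 136, between Hist1h2ak and Hist1h2bn 138 and 119, and between Hist2h2ac and Hist2h2be 136 and 139. In replicate 1 the 8 pairs spanned 136 to 143, while replicate 2 was more spread, from 119 to 141.

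The other 4 pairs had no shared region between the starts. They were Hist1h2bq and Hist1h2ao, Hist1h2ap and Hist1h2br, Hist1h2bf and Hist1h2ad, and Hist1h2ba and Hist1h2aa. The gap between Hist1h2bf and Hist1h2ad held a peak with a score of 54 in replicate 1 only. The printed sequence of this gap has 4 CCAAT boxes and that of Hist1h2bq and Hist1h2ao 3, within the 2 to 4 of the open gaps printed beside them. Neither has TATAAA or the octamer. Over all 12 pairs, TATAAA was found in 1 of the 4 gaps without a shared region and in 6 of the 8 with one, and the octamer in 1 of the 4 and 4 of the 8. The gap without a region that holds both is that of Hist1h2ba and Hist1h2aa. Among the 4, the gaps of Hist1h2bq and Hist1h2ao and of Hist1h2ap and Hist1h2br are copies of 1 sequence, as described below. Their letters are thus counted more than once, and short reads there may have no unique place. A link between motif and peak was not tested.

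Without a shared region were 14 members. Some lie in sequence that occurs more than once in the genome, where short reads may have no unique place, and others do not. As a measure, the 36-base sequences within 1 kb of the 5′ end were counted, and the share of them found at 1 place in the main chromosomes was taken. In open members this share had a median of 78.6% (20.9 to 100), and in members without a shared region 38.5% (0.00 to 100). Below 50% lay 3 of 53 open members and 7 of 14 others, and below 10% lay 0 open members and 6 others. Of the members with at least 50%, 50 were open and 7 were not. The treatment of reads with several places was not given in the sources used here, so the part of repeated sequence in the missing peaks was not tested.

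**Figure D4:**
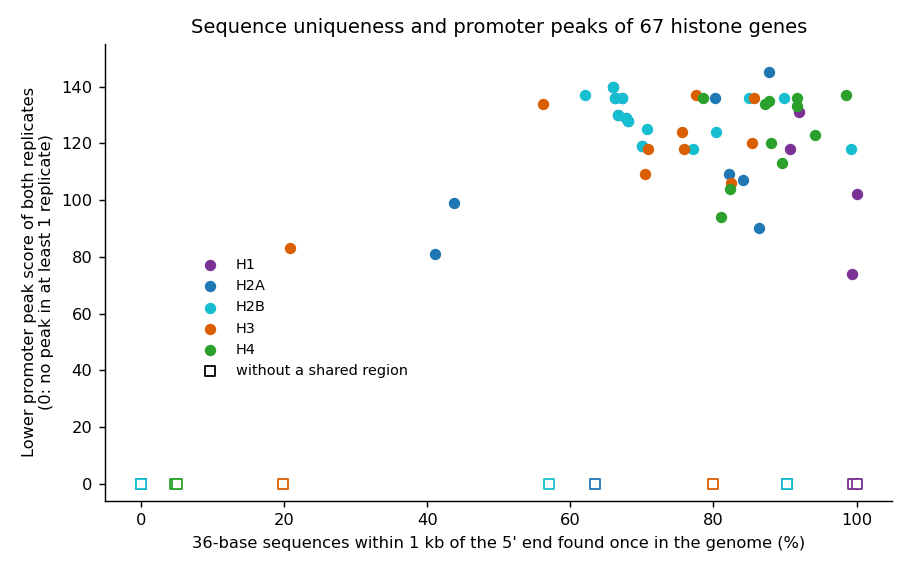
Share of 36-base sequences around the 5′ end (1 kb on either side) found once in the genome (horizontal, %) and the lower of the promoter peak scores of both replicates (vertical, 0 where at least 1 replicate has no peak), 1 point per histone gene by class. Open squares are members without a shared region, and points of paired genes can lie on top of each other. At the far left, 6 squares have values under 10%, and the open members with the lowest uniqueness, 20.9 to 43.8%, have lower scores of 81 to 99.

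The 6 members with the lowest uniqueness lie at the end of the first Hist1 group and form an inverted repeat. Hist1h2bq, Hist1h2ao and Hist1h4m at chr13:21806612-21812147 face Hist1h4n, Hist1h2ap and Hist1h2br at chr13:21831767-21837530. Hist1h2bq shared 99.9% of its 36-base sequences with Hist1h2br, Hist1h2ao 98.5% with Hist1h2ap, and Hist1h4m 79.6% with Hist1h4n. The whole 235-base gap between Hist1h2ap and Hist1h2br lies within the reverse complement of the 267-base gap printed above for Hist1h2bq and Hist1h2ao. None of the 6 had a peak within 1 kb in either replicate. Hist2h3c1, with 19.9% of sequences found once, lies in a like inverted repeat on chromosome 3 and also had no peak, while its copy Hist2h3c2, which shares 79.1% of its sequences, had one. That peak lay 976 bp downstream of the 5′ end of Hist2h3c2 in replicate 1 and 936 bp in replicate 2, and no shared region reached within 250 bp. The H2A copies Hist2h2aa1 and Hist2h2aa2 had peaks centred at −306 and −335 bp. Values at these copies are uncertain, since a read from one copy can be placed at the other or nowhere.

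Of the 7 members without a shared region and with at least 50% of sequences found once, 3 are known as genes of the testis. Hist1h1t encodes H1t, the linker histone of spermatocytes, and had no peak in either replicate although 100% of its 36-base sequences were found once. Hist1h2ba and Hist1h2aa encode the testis forms of H2B and H2A. They stand back to back as the fourth Hist1 group, with 90.3% of sequences found once, and had a single peak in replicate 1 with a score of 20, at percentile 4.45 of all peaks of that list, and none in replicate 2. The other 4 are not known to be limited to the testis. Hist1h2bf (57% found once) and Hist1h2ad (63.5%) had the peak of score 54 in replicate 1 only, and Hist1h3d (79.9%) had none.

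The last of them, Hist1h1d, had its own open site away from the annotated start. GENCODE places its 5′ end 1828 bp before the start codon, and no peak lay within 1 kb of it. At the start codon itself, peaks with scores of 102 in replicate 1 and 96 in replicate 2 were found. Hist1h2be had peaks at both places. Its annotated 5′ end lies 35168 bp before the start codon, inside Hist1h1e, where it was called open with scores of 130 and 118. At its start codon a separate peak scored 139 and 125 (chr13:23585936-23586085 in replicate 1 and chr13:23585956-23586105 in replicate 2). Measured around start codons in place of transcription starts, 54 of 67 members were open (80.6%), against 45.9% of all 21633 protein-coding genes with an annotated start codon. The median distance between 5′ end and start codon was 33.0 bp over the members, and 3 members had over 250 bp. That distance was not measured for other genes, so the shares around start codons may not compare like places. Around transcription starts the shares were 79.1% of members and 59.5% of all protein-coding genes.

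Promoter motifs were sought on both strands from 250 bases before to 50 bases after the 5′ end. A match is a description of the letters and not a bound site, and divergent genes share bases and hence matches. CCAAT was found in 56 of 67 members (83.6%), against 39.0% of all protein-coding promoters. All 18 H2A and all 18 H2B promoters had it, as did 11 of 12 H3 and 5 of 6 H1 promoters, but 4 of 13 H4 promoters. The H3 and H1 genes without it, Hist1h3f and Hist1h1d, have annotated 5′ ends 433 and 1828 bp before the start codon. The bases searched in these genes, here and for the other motifs, do not reach the start codon. H2B promoters held a mean of 3.28 copies and H2A promoters 3, against 0.570 over all protein-coding promoters. In 40 members at least 1 CCAAT lay inside a shared region, a count that was not made for other genes.

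TATAAA was found in 37 members (55.2%), against 12.6% of all protein-coding promoters and 6.55% of those open within 250 bp. The octamer ATTTGCAT was found in 15 members (22.4%), against 1.57%, and these were 8 H2B and 7 H2A genes. An E2F site, spelled TTTCGCGC or TTTGGCGC, was found in 9 members (13.4%), against 1.02%, again 5 H2A and 4 H2B genes. The SP1 box GGGCGG was found in 28 members (41.8%), against 43.0% of all protein-coding promoters and 64.6% of those open within 250 bp. SP1 boxes were present in 10 of 13 H4 promoters and in 2 of 12 H3 promoters.

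Members open within 250 bp and the rest had like shares of most of these motifs. CCAAT was found in 84.3% of the 51 open and 81.2% of the 16 other members, and TATAAA in 54.9% and 56.2%. The octamer was found in 25.5% of the open and 12.5% of the other members.

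**Figure D5:**
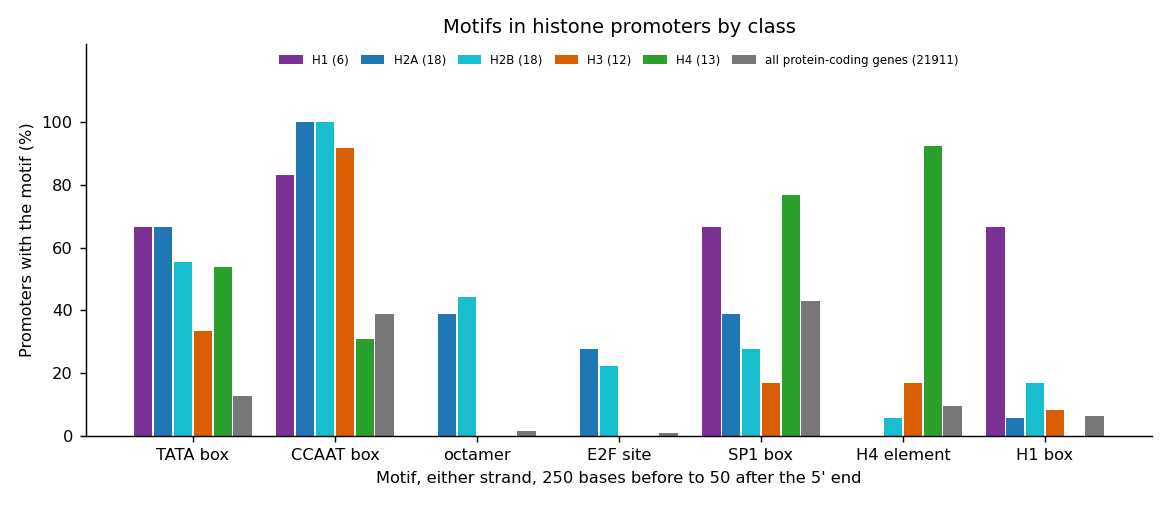
Percentage of promoters with each motif, by histone class and over all protein-coding genes (grey), on either strand from 250 bases before to 50 after the 5′ end. CCAAT reaches 100% in H2A and H2B, GGTCCG (H4 element) 92.3% in H4 and AAACACA (H1 box) 66.7% in H1, against 39.0%, 9.58% and 6.40% of all protein-coding genes.

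A pair of further motifs was added after the promoter sequences had been seen. GGTCCG is part of the H4 element that the factor HINFP is known to bind. It was found in 12 of 13 H4 promoters (92.3%), all except Hist1h4a, and in 3 of the other members. The share was 9.58% of all protein-coding promoters and 14.6% of those open within 250 bp. AAACACA, known as the H1 box, was found in 4 of 6 H1 promoters (66.7%), against 6.40% of all protein-coding promoters and 4.01% of those open within 250 bp. Among the other members it was found in 3 H2B, 1 H2A and 1 H3 promoters. The 150 bases before the 5′ end are shown for 4 members, each on the strand of its gene. Hist3h2a has the highest-scoring H2A promoter, Hist1h4c and Hist1h1e are open genes with the H4 element and the H1 box, and Hist1h1t is the testis gene without a peak. Capitals mark these elements together with the TATA box, the CCAAT box and the octamer, on either strand.
Hist3h2a, chr11:58954535-58954684, plus strand: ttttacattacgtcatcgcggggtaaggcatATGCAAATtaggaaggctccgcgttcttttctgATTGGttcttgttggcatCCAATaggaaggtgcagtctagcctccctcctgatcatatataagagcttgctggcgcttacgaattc
Hist1h4c, chr13:23698455-23698604, minus strand: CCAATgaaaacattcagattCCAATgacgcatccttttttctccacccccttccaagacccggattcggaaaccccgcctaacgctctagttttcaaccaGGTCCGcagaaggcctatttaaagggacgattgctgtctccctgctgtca
Hist1h1e, chr13:23622559-23622708, minus strand: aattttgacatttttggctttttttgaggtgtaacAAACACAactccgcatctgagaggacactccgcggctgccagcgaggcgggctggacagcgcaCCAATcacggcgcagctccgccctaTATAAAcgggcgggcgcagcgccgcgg
Hist1h1t, chr13:23695664-23695813, plus strand: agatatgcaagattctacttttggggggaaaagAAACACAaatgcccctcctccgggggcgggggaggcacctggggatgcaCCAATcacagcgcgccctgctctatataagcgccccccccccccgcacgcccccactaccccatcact
Both H1 promoters hold AAACACA and CCAAT in the same order, but only that of Hist1h1e has the letters TATAAA. Peaks were found at Hist1h1e (129 in replicate 1 and 118 in replicate 2) and none at Hist1h1t. Hist1h1c, which had peaks (133 and 131), also holds AAACACA and CCAAT without TATAAA.

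At the other end of the genes, the histone stem-loop was sought on the gene's strand in the 150 bases after the stop codon, as the arm GGCTCT, any 4 bases and the arm AGAGCC with at most 1 mismatch in each arm. It was found in 64 of 67 members (95.5%), against 0.780% of 21658 other protein-coding genes. The stem-loop began a median of 30.5 bases after the stop codon (21 to 58). In 52 members both arms matched exactly. The most common forms are shown with the arms in capitals and the loop in lower case.
Most common form, in 41 members: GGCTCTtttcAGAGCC
Form with another loop, in 9 members: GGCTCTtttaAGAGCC
Form of 8 H4 genes, with a changed base in each arm: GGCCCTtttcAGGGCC
The form of the H4 genes keeps the arms complementary to each other. A further loop, in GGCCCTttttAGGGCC, was that of Hist2h4 and Hist1h4i. By this rule no stem-loop was found in Hist2h2be, Hist1h4j and Hist1h4b, all of them open.

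Hotspots, the wider regions, covered the 5′ ends of 37 members in replicate 1 (55.2%), against 51.5% of all protein-coding genes. In replicate 2 they covered 36 members (53.7%), against 50.5%. These shares lay close to the background, but the hotspots were narrower. The 36 hotspots over members in replicate 1 had a median width of 430 bp (162 to 2646), against 1340 bp for hotspots over the 5′ ends of all protein-coding genes. In replicate 2 the 34 hotspots had a median of 476 bp (218 to 3023), against 1273 bp. The widest lay over Hist2h4, spanning 2646 bp in replicate 1 and 3023 bp in replicate 2. Those over the annotated start of Hist1h2be inside Hist1h1e were 2156 and 2361 bp wide, and those over Hist4h4 were 2125 and 2043 bp. No hotspot held more than 2 member starts.

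Shared regions were denser in the histone groups than on the autosomes as a whole. From the first to the last member, the groups spanned 426 kb and held 140 shared regions, or 3.29 per 10 kb, against 0.508 per 10 kb on all autosomes. Over 1 kb away from every annotated member start there remained 43 regions in 333 kb, or 1.29 per 10 kb, against 0.391 on autosomes over 1 kb from protein-coding starts. Among the 43 are regions at the start codons of Hist1h1d and Hist1h2be, which lie 1828 and 35168 bp from the annotated 5′ ends. The count of 43 changed with the peaks used: it was 71 in replicate 1 alone (2.13 per 10 kb, against 0.610 on autosomes), 18 with the stronger 50% of peaks (0.540, against 0.196) and 28 as hotspots (0.840, against 0.339). Of these 43, 6 lay within 1 kb of a start of another gene and 37 did not. The third Hist1 group held 26 of them (1.38 per 10 kb), the Hist2 cluster 7 (1.88) and the first Hist1 group 6 (0.618).

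The highest region over 1 kb from every annotated member start was the one at the start codon of Hist1h2be, described above. The next, at chr13:21779396-21779545, lies downstream of Hist1h1b and scored 136 in replicate 1 and 122 in replicate 2, above the promoter peak of Hist1h1b itself with 95 and 74. A region inside the gene model of Hist1h1d at chr13:23556156-23556325 scored 135 and 121. One in Hfe, the iron-regulating gene within the third Hist1 group, at chr13:23710536-23710705 scored 117 and 104. It lay within 1 kb of a start of a gene other than the members. One with no gene at chr13:23701256-23701425 scored 112 and 110.

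The Hist1 region of chromosome 13 is also known for its many tRNA genes, and these were set beside the histone genes after the data had been seen. From the first to the fourth Hist1 group, over 2.22 Mb, RefSeq annotates 77 tRNA genes, none of them inside the histone groups. A shared region lay within 100 bp of 71 of the 77 (92.2%), against 60.0% of all 403 tRNA genes on the main chromosomes. Between the first and the second group 30 of 31 tRNA genes had one, and between the second and the third group 41 of 46. The second and the third histone group held 7.05 and 3.04 shared regions per 10 kb, against 0.531 in the 1.49 Mb between them. The first group held 2.63 per 10 kb, close to the 2.48 in the 198 kb between it and the second group, and the fourth group of 2 genes held none. Between the third and the fourth group there were 0.354 per 10 kb. Protein-coding genes were open in 3 of 3 cases between the first and the second group, and in 4 of 40 between the second and the third. Many tRNA genes have near-identical copies, whose uniqueness was not counted.

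Other genes of the histone pathway were read from lists. Replication-independent histone genes, which supply variants outside the copying of DNA, were open in 11 of 18 cases (61.1%, Wilson interval 38.6 to 79.7%), close to the 59.5% of all protein-coding genes. H3f3b, which encodes H3.3, had scores of 149 in replicate 1 and 143 in replicate 2. H2afv, of the H2A.Z family, had 148 in both. H2afx, whose phosphorylated form marks DNA breaks, had 146 and 138. Those without a shared region were H2afy2 (macroH2A2), the spermatid linker histone genes H1fnt and Hils1, and H2afb1, H2afb2, H2afb3 and H2bfm. The open replication-dependent genes had a median lower percentile of 44.5, against 69.3 in these 11 open genes.

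Factors of histone transcription and 3′ end processing were open in 30 of 30 cases (Wilson interval 88.6 to 100%), against 59.5% of all protein-coding genes. Histone chaperones, which carry histones to DNA, were open in 20 of 20 (83.9 to 100%), against the same 59.5%. The highest of the factors were Nfya (150 in replicate 1 and 149 in replicate 2), Zfp143 (149 and 147), and Nfyb (148 and 146) tied with Tbpl1 (148 and 147). Nfyb and Tbpl1 had the same lower percentile of 91.3. Nfya and Nfyb encode NF-Y subunits. Npat scored 147 and 143, Hinfp 149 and 142, Pou2f1 142 and 136, and Slbp 145 and 143. The highest of the chaperones were Asf1b (149 and 148), Hjurp (149 and 150), which loads the centromeric histone CENP-A, and Rbbp4 (149 and 146). The open replication-dependent genes, with their median lower percentile of 44.5, thus ranked below the factors, with 69.5, and the chaperones, with 75.8, and the difference was not tested.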

How the data were processed

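Each DNase-seq library has its own deposited list of peaks and of hotspots, on mm10 per the labels. Aligner and caller were not given in the sources used here. The authors' peak score (1 to 150) was used as deposited, within each list. For hotspots the authors deposited a score and the −log10 of a false discovery rate, and neither was used beyond the hotspots' positions. Shared regions join peaks of both replicates that overlap by 1 bp or more. Gene models were those of GENCODE M21, sequences came from GRCm38, and tRNA genes from RefSeq. Percentiles are mean ranks among open protein-coding promoters of the same list. Coordinates are 1-based.

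With 1 group of 2 libraries no test between conditions was possible. Lists are described by counts and medians beside all protein-coding genes, and the numbers of peaks, 189648 and 170745, limit the precision. Members, lists and motifs were chosen with earlier results of these data known. The genes named were the 3 open genes of each class and list with the highest lower percentile, all genes without a shared region, the genes on chromosomes 3, 6 and 11, the testis genes and those in the 3 widest hotspots. Genes tied with the last of such 3 were not all named. Other genes and the regions over 1 kb from member starts were chosen after their values were seen. H3f3c had no match among the protein-coding genes. The alternatives were other windows, starts, overlaps and thresholds, hotspots in place of peaks, and each replicate alone. The steps were tested on simulated data. Calculations used Python 3.11.15, numpy 2.4.6, pandas 2.3.3, scipy 1.17.1, numba 0.67.0 and matplotlib 3.10.9.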

Additional observations from a re-analysis of the deposited data

How the results depend on the processing

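Of 165 values computed under alternatives for 20 results, 157 stayed close to the value reported. The rule for counts was loose: the 4 open H1 genes were called close to the 6 found with a window of 2.5 kb. For the mean percentile, close meant within the SD of 2.02 over both replicates. Many of the 20 results are counts of the same members by class and group, so the 165 values are not independent. The count of open members, 53, was 57 without replicate 2, 52 with a window of 500 bp and 58 with one of 2.5 kb. The fourth Hist1 group had 0 open genes, and 0 to 2 with 1 replicate left out: 2 in replicate 1 alone, from the peak of score 20. The mean percentile of promoter score, 52.3, was 46.0 with a window of 500 bp, 54.4 with 2.5 kb, 49 with the stronger 50% of peaks and 47.8 within 250 bp of the 5′ end, an alternative chosen after seeing the data. Wider windows take in peaks of neighbouring genes. The 43 shared regions over 1 kb from every annotated member start were 18 with the stronger 50% of peaks, 28 as hotspots and 55 to 71 with 1 replicate left out. The count of 71 was that of replicate 1 alone. No paired analysis was possible because both libraries belong to 1 group. Read depth, the rule for reads with several places and the threshold of the peak caller limit what a missing peak shows. Peaks and hotspots come from the same reads and are no independent measures.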
